A study of Mus musculus with 12 samples.

Results

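The synaptic vesicle and exocytosis genes of the neonatal mouse inner ear were compared between Gfi1 mutants and heterozygotes. They were taken by symbol from the families of the synaptotagmins, synapsins, syntaxins, VAMPs, SNAP proteins, complexins, SV2 proteins, Rab3 GTPases, RIMs, syntaxin-binding proteins, Munc13 proteins (Unc13a to Unc13d) and synaptophysins with their relatives. A gene also needed a level of 1 CPM (a read count scaled to its library total) or more in 3 or more of an organ's 6 libraries. Of 78 matching symbols, 71 met this in the cochlea, among 17985 genes tested, and 70 in the vestibule, among 15595. Together they were 72 genes, of which 69 were tested in both organs, where 14674 genes were. The RNA came from ribosomes pulled down with an HA antibody. In RiboTag mice, Cre recombinase puts an HA tag on a ribosomal protein, and Cre was made here from the Gfi1 locus, which is active in hair cells. Mutants were Gfi1Cre/Cre;RiboTagHA/HA, with Cre on both copies of Gfi1, and heterozygotes were Gfi1Cre/+;RiboTagHA/HA, with Cre on a single copy. Both groups were P0 to P1 pups, and all carried the RiboTag allele on both chromosomes. Each genotype had 3 cochlear and 3 vestibular libraries, 12 in all, which the series describes as independent biological replicates. There was no group without Cre, and the Cre dose differs with the genotype, so the dose and the loss of unmodified Gfi1 cannot be told apart. Cochlear and vestibular libraries were made with different kits, and levels were therefore not compared between organs.

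Transmitter release depends on SNARE proteins: VAMPs on the vesicle zip together with syntaxins and SNAP-25 on the target membrane and draw the membranes together. Synaptotagmins include the calcium sensors of this step, complexins and Munc18 proteins bind the SNAREs, Munc13 proteins prime vesicles, and Rab3 with the RIMs holds vesicles at the active zone. Hair cells release glutamate at ribbon synapses with otoferlin, and whether they use the neuronal synaptotagmins and SNAREs has been debated.

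GFI1 is a zinc finger repressor, and its binding sequence has AATC at the core. Of the 7 genes called in both organs, promoters of 4 are shown, and Snap25, Syt4 and Syt11 are left out. These promoters are shown because GFI1, whose gene carries Cre on both copies in mutants, is known to bind such letters. They are RefSeq sequences on GRCm38.p6, from 250 bases before to 50 bases after the start, read 5′ to 3′ on the gene's strand. Capitals mark AATC, or GATT where it lies on the opposite strand. Synpr is at chr14:13284530-13284829 (plus strand), Syt9 at chr7:107370540-107370839 (plus strand), Cplx1 at chr5:108549978-108550277 (minus strand) and Syt1 at chr10:109010926-109011225 (minus strand).
Synpr: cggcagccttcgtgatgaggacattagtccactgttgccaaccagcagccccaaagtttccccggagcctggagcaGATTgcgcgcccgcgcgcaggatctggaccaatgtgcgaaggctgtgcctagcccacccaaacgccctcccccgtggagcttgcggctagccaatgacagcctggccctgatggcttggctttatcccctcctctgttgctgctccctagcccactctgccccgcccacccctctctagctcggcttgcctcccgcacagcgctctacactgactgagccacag
Syt9: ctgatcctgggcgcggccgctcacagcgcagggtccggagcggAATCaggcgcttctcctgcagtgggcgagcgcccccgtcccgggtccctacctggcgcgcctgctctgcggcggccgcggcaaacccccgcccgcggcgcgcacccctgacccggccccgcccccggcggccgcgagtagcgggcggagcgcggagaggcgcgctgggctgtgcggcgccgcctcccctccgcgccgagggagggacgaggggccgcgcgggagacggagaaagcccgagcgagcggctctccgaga
Cplx1: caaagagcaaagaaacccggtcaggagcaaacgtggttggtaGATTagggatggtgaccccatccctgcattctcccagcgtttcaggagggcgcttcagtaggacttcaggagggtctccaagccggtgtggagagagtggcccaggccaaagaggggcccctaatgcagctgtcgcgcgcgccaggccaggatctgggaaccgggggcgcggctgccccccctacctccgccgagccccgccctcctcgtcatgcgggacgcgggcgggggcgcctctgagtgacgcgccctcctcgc
Syt1: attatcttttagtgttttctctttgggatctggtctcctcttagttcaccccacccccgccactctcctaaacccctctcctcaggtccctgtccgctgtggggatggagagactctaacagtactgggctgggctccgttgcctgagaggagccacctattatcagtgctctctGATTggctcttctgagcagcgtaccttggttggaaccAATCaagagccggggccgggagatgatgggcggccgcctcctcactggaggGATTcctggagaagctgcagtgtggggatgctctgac
The first 3 genes, which were higher in mutants in both organs, held 1 match each, and Syt1, which was lower in both, held 3. A match is a description of the letters and not a site. Of 32851 promoters of the same length 73.1% held at least 1 match on either strand, with a median of 1 per promoter, and 22.6% held 3 or more. Of the 78 matching symbols 59 had an entry.

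Cochlear libraries totalled 7531518 to 9363796 reads, each worth 0.107 to 0.133 CPM, and vestibular libraries 18951026 to 29370267 reads, each worth 0.0340 to 0.0528 CPM. Gfi1 itself, the targeted gene, had 75.1, 64.3 and 69.1 CPM in mutant cochleae, against 165, 106 and 126 CPM in heterozygous cochleae (log2 fold change -0.90, adjusted p = 0.00355 by limma with Benjamini-Hochberg adjustment). Mutant vestibules had 236, 198 and 208 CPM of it, against 534, 450 and 483 CPM in heterozygous vestibules (-1.19, limma, adjusted p = 0.00234). Hair cell markers were present in every library, with summed levels of 2605 to 3038 CPM in mutant and 3684 to 4318 CPM in heterozygous cochleae, and of 4955 to 5146 CPM in mutant and 3848 to 4169 CPM in heterozygous vestibules. Myo6, called in neither organ, was the largest part of these sums. It had 2094 to 2473 CPM in mutant and 2890 to 3418 CPM in heterozygous cochleae. Its vestibular levels were 2319 to 2884 CPM in mutants and 1508 to 2141 CPM in heterozygotes. Macrophage markers were also present, summing to 2632 to 3228 CPM in mutant and 2182 to 2728 CPM in heterozygous cochleae, and to 6722 to 7877 CPM in mutant and 7085 to 8931 CPM in heterozygous vestibules. Both vestibular replicate 1 libraries stood apart, with 0.729% and 0.684% of reads outside the listed genes in the mutant and the heterozygote, against at most 0.127% in the other 4. Libraries with the same number deviated together in both organs, so counts of calls are also given from fits with the replicate number as a block.

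In the mutant cochlea, 15 of the 71 tested vesicle and exocytosis genes changed, 11 higher and 4 lower, at a Benjamini-Hochberg adjusted p under 0.05 (limma, adjusted over all genes tested). That is 21.1% of them, beside 4.41% of all genes tested (1.9% higher and 2.52% lower). Synpr, Sv2b, Syt4, Syt5, Syt9, Syt11, Syt16, Snap25, Stx7, Cplx1 and Rims3 were higher, and Syt1, Syt2, Syt13 and Syt14 were lower. Their median log2 fold change over all 71 was 0.07, beside 0.05 over all genes, and 53 of 71 had an absolute log2 fold change under 0.5. The 3 mutant libraries lay wholly above the 3 heterozygous ones for 16 members and wholly below for 8 (33.8% together), beside 9.74% and 7.77% of all genes (17.5% together). With the replicate block 18 were called, 12 higher and 6 lower, beside 8.52% of all genes (4.21% higher and 4.31% lower), and with edgeR on the recovered reads 13, beside 4.52%. Ganglion neuron markers summed to 1681 to 1712 CPM in mutant cochleae and 960.1 to 1088 CPM in heterozygous cochleae, with 3 of 9 called higher (Nefm, Tubb3, Gap43) and none at 0. Nefl and Nefm gave most of these sums. Thy1 had 0.463 to 0.645 CPM in mutants and 1.39 to 2.12 CPM in heterozygotes, and Prph 0.750 to 2.06 CPM in mutants and 1.02 to 3.63 CPM in heterozygotes. Of the 8 hair cell markers 4 were called lower (Myo7a, Lhfpl5, Cdh23, Espn) and none higher. Atoh1, from the same list, had 65.3 to 73.2 CPM in mutants, wholly above 36.2 to 63.9 CPM in heterozygotes (0.47, limma, adjusted p = 0.254). Granulocyte markers summed to 3.87 to 9.50 CPM in mutants and 31.5 to 54.3 CPM in heterozygotes, with 4 of 5 tested called lower. Of these calls Ngp, Ltf and Retnlg were under 1 CPM in every mutant library. They met the minimum, and so were among the tested markers, only through the heterozygotes, where they were higher. Mpo (0.129 to 0.625 CPM in mutants and 0.133 to 0.641 CPM in heterozygotes) and Elane stayed under 1 CPM in every library. Mast cell markers summed to 86.6 to 138 CPM in mutants and 131 to 179 CPM in heterozygotes, with 2 of 5 called lower (Cma1, Mcpt4). Kit, which was not called, was the largest part of these sums, with 70.2 to 95.1 CPM in mutants and 77.5 to 89.6 CPM in heterozygotes. The part of these lists in the cochlear results was not tested. In RNA pooled from many cells, fewer cells of a type and less RNA per cell cannot be told apart.

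**Figure D1:**
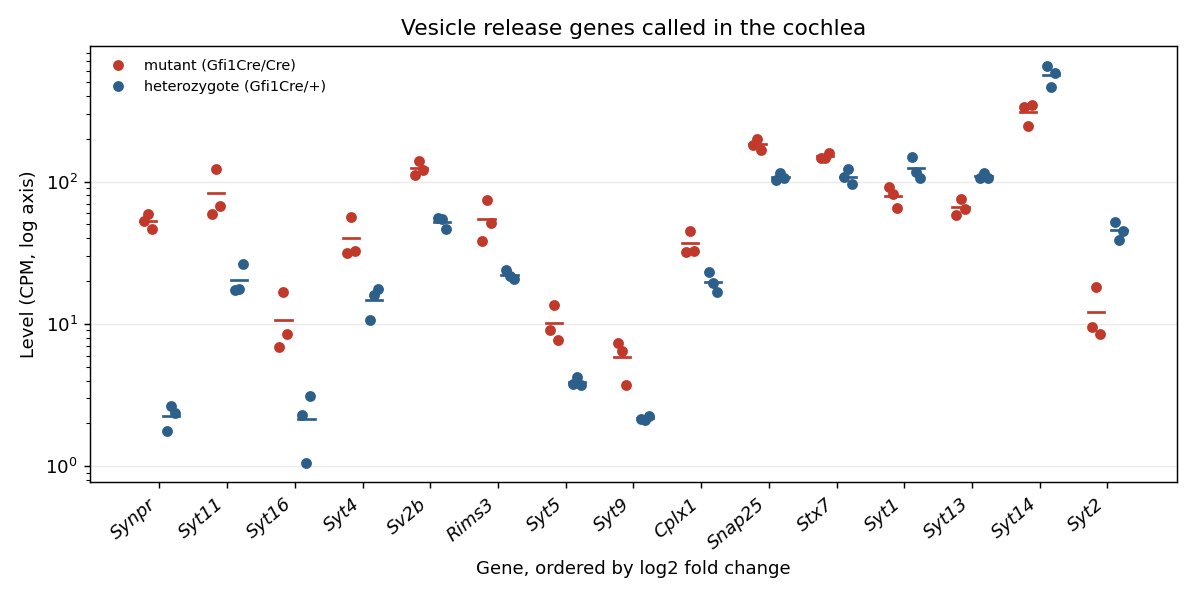
Levels in CPM (log axis) of the 15 vesicle and exocytosis genes called in the cochlea, with a point for each library, mutants left and heterozygotes right of each gene position, and a bar at the mean of 3. The 3 mutant libraries do not overlap the 3 heterozygous ones for any of the 15, from Synpr (log2 fold change 4.04) to Syt2 (-1.90).

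Synaptotagmins held most of the cochlear calls, with 9 of 15 tested members called, 5 higher and 4 lower. Syt2, a fast calcium sensor of neuronal release, had 9.50, 18.2 and 8.45 CPM in mutants, against 52.3, 39.0 and 45.0 CPM in heterozygotes (log2 fold change -1.90, SE 0.24, limma, adjusted p = 0.000322). The highest mutant library stayed below the lowest heterozygous one. Syt1, its close relative and the best known fast sensor, had 91.6, 82.2 and 64.9 CPM in mutants, against 149, 118 and 107 CPM in heterozygotes (-0.64, SE 0.16, limma, adjusted p = 0.0373). The groups did not overlap, but its call dropped out when heterozygote replicate 1 or 2 or either of mutant replicates 2 and 3 was omitted (adjusted p reaching 0.193), and edgeR gave 0.0516. Syt13, a synaptotagmin that does not bind calcium, had 58.5, 75.4 and 63.9 CPM in mutants, against 106, 115 and 106 CPM in heterozygotes (-0.72, SE 0.13, limma, adjusted p = 0.00484). Syt14, which also does not bind calcium, was the synaptotagmin with the highest level per length in heterozygous cochleae. It had 333, 247 and 347 CPM in mutants, against 651, 465 and 577 CPM in heterozygotes (-0.87, SE 0.16, limma, adjusted p = 0.0055). For both genes every mutant library lay below every heterozygous one.

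The synaptotagmins that were higher in the mutant cochlea were Syt4, Syt5, Syt9, Syt11 and Syt16. Syt11, whose first C2 domain does not bind calcium, had 59.1, 122 and 67.6 CPM in mutants, against 17.4, 17.5 and 26.4 CPM in heterozygotes (log2 fold change 1.92, SE 0.24, limma, adjusted p = 0.000297). Syt4, the closest relative of Syt11, had 31.7, 56.7 and 32.8 CPM in mutants, against 10.7, 16.1 and 17.6 CPM in heterozygotes (1.37, SE 0.24, limma, adjusted p = 0.00365). The pair shared the pattern of a highest value in mutant replicate 2. Syt4 overlaps another gene over 14.5% of its exon bases, and no source used here gives the strand setting of the counting. Syt16, a synaptotagmin that does not bind calcium, had 6.87, 16.8 and 8.45 CPM in mutants, against 2.29, 1.06 and 3.10 CPM in heterozygotes (1.86, SE 0.34, limma, adjusted p = 0.00495). Syt5, a calcium-binding member, had 8.998, 13.7 and 7.76 CPM in mutants, against 3.81, 4.25 and 3.74 CPM in heterozygotes (1.14, SE 0.25, limma, adjusted p = 0.0172). Its heterozygous libraries lay close together and below all mutant ones, and the call was lost without heterozygote replicate 1 and on omitting mutant replicate 1 or 2 (its adjusted p reached 0.0997). Syt9, a calcium sensor of the same class as Syt1 and Syt2, had 7.37, 6.45 and 3.71 CPM in mutants, against 2.16, 2.12 and 2.24 CPM in heterozygotes (1.07, SE 0.27, limma, adjusted p = 0.0414). The groups did not overlap, but the Syt9 call was lost on omitting each of the 3 heterozygous libraries in turn or mutant replicate 1 or 2 (its adjusted p reached 0.217), and edgeR gave 0.0527. The other 6 tested synaptotagmins were not called, among them Syt7, the slow high-affinity calcium sensor, with 62.2, 86.2 and 79.3 CPM in mutants and 82.3, 101 and 85.9 CPM in heterozygotes.

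Of 13 vesicle membrane and surface proteins 2 were higher in the mutant cochlea and none lower. Synpr, which encodes synaptoporin, a vesicle membrane protein related to synaptophysin (chromosome 14, 13284780 to 13616340 on GRCm38), had 52.7, 59.0 and 46.1 CPM in mutants, against 1.78, 2.66 and 2.35 CPM in heterozygotes. Its mean level was 23.3 times that of heterozygotes, and its log2 fold change of 4.04 (SE 0.21, limma, adjusted p = 3.59e-07) was the largest of all 71. Heterozygous cochleae thus held Synpr at under 3 CPM and mutants at over 46 CPM. Sv2b, which encodes a vesicle glycoprotein of the SV2 family (chromosome 7, 75114894 to 75309262), had 111, 141 and 120 CPM in mutants, against 55.4, 54.7 and 46.2 CPM in heterozygotes (1.23, SE 0.14, limma, adjusted p = 0.000109). Its relative Sv2a had 12.7 to 23.0 CPM in mutants and 15.5 to 22.4 CPM in heterozygotes and was not called. Syp, which encodes synaptophysin, had 43.0, 69.0 and 62.9 CPM in mutants and 41.4, 48.6 and 44.5 CPM in heterozygotes, and was not called (limma, adjusted p = 0.473). Sypl, a broadly expressed relative with the highest level per length of this group in heterozygous cochleae, had 171, 170 and 106 CPM in mutants and 167, 171 and 79.5 CPM in heterozygotes, with the replicate 3 libraries lowest in both genotypes. Syn3, a synapsin of the vesicle surface, had 53.4, 47.4 and 50.5 CPM in mutants and 68.8, 68.9 and 61.4 CPM in heterozygotes. It was not called (-0.39, limma, adjusted p = 0.148), except with the replicate block (limma, adjusted p = 0.0281).

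Few SNARE genes changed in the cochlea. None of the 5 tested vesicle SNAREs was called by limma, with edgeR or with the block, and none had an unadjusted p under 0.05. Vamp2, the main vesicle SNARE of neurons and the one with the highest level per length, had 109, 138 and 94.2 CPM in mutants and 141, 144 and 83.2 CPM in heterozygotes. Of 18 target SNAREs 2 were higher and none lower. Snap25, the neuronal partner of the syntaxins (chromosome 2, 136713453 to 136782428), had 181, 199 and 168 CPM in mutants, against 103, 115 and 106 CPM in heterozygotes (log2 fold change 0.75, SE 0.12, limma, adjusted p = 0.00187). The groups were far apart for Snap25, while Snap23, its relative outside neurons, had 162, 133 and 142 CPM in mutants and 118, 141 and 147 CPM in heterozygotes. Stx7, a syntaxin of late endosomes, had 147, 147 and 159 CPM in mutants, against 107, 122 and 96.5 CPM in heterozygotes (0.48, SE 0.13, limma, adjusted p = 0.0463). The groups did not overlap, but the Stx7 call was lost without heterozygote replicate 1 or 3 and without each of the 3 mutant libraries in turn (adjusted p reaching 0.170), and edgeR gave 0.106. Stx1a, a plasma membrane syntaxin of neurons, was not called, with 11.6 to 16.1 CPM in mutants and 12.1 to 16.9 CPM in heterozygotes. Stx12, an endosomal syntaxin and the target SNARE with the highest level per length, had 119, 111 and 125 CPM in mutants and 128, 109 and 119 CPM in heterozygotes, with no separation.

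Among SNARE partners and priming factors 1 of 12 was called in the cochlea. Cplx1, which encodes complexin 1 (a clamp and activator of the SNARE complex), had 32.2, 45.3 and 32.7 CPM in mutants, against 23.0, 19.3 and 16.8 CPM in heterozygotes (log2 fold change 0.86, SE 0.18, limma, adjusted p = 0.0146). The Cplx1 call was lost on omitting heterozygote replicate 2 or mutant replicate 2 (its adjusted p reached 0.0918). Cplx2, the other complexin of neurons, had 69.6, 124 and 79.1 CPM in mutants, wholly above 64.9, 51.3 and 51.2 CPM in heterozygotes, and was not called (limma, adjusted p = 0.0855), though it was with the block (0.00562) and without mutant replicate 1. Stxbp4, a syntaxin-binding protein, had 152, 128 and 137 CPM in mutants, wholly below 204, 171 and 187 CPM in heterozygotes (-0.43, limma, adjusted p = 0.0792). It was called with the block (0.00283), with edgeR (0.0456) and with rescaling. Unc13b, which encodes the priming factor Munc13-2, had the highest level per length of all 71 members in heterozygous cochleae. It had 2944, 1088 and 1500 CPM in mutants and 3164, 1657 and 1795 CPM in heterozygotes, and its replicate 1 libraries were highest in both genotypes. In the group of Rab3 and the RIMs 1 of 8 was called. Rims3, a short RIM of the active zone, had 38.0, 73.7 and 51.1 CPM in mutants, against 23.8, 21.6 and 20.6 CPM in heterozygotes (1.22, SE 0.21, limma, adjusted p = 0.00282). Rims2, a long RIM and the member of this group with the highest level per length, had 174, 189 and 170 CPM in mutants and 174, 158 and 191 CPM in heterozygotes. The groups overlapped for Rims2 and not for Rims3. Of the 11 cochlear rises 9 had their highest value in mutant replicate 2, a share that was not computed for all called genes. The ganglion neuron marker Gap43 was also highest there (182 CPM, against 81.7 and 90.7 CPM in the other 2 mutant libraries). So were Tubb3 (70.1 CPM, against 19.0 and 35.7 CPM), Ntrk2 (87.1 CPM, against 60.5 and 40.1 CPM) and Ntrk3 (67.1 CPM, against 39.6 and 53.5 CPM). Nefh, Prph and Thy1, at lower levels, also had their highest mutant value in replicate 2. Nefl (502 CPM, against 521 and 541 CPM) and Nefm (790 CPM, against 984 and 912 CPM) were lowest there. The ganglion neuron sums, which came mostly from Nefl and Nefm, were 1711, 1712 and 1681 CPM in mutant replicates 1, 2 and 3. A link between these markers and the rises was not tested.

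**Figure D2:**
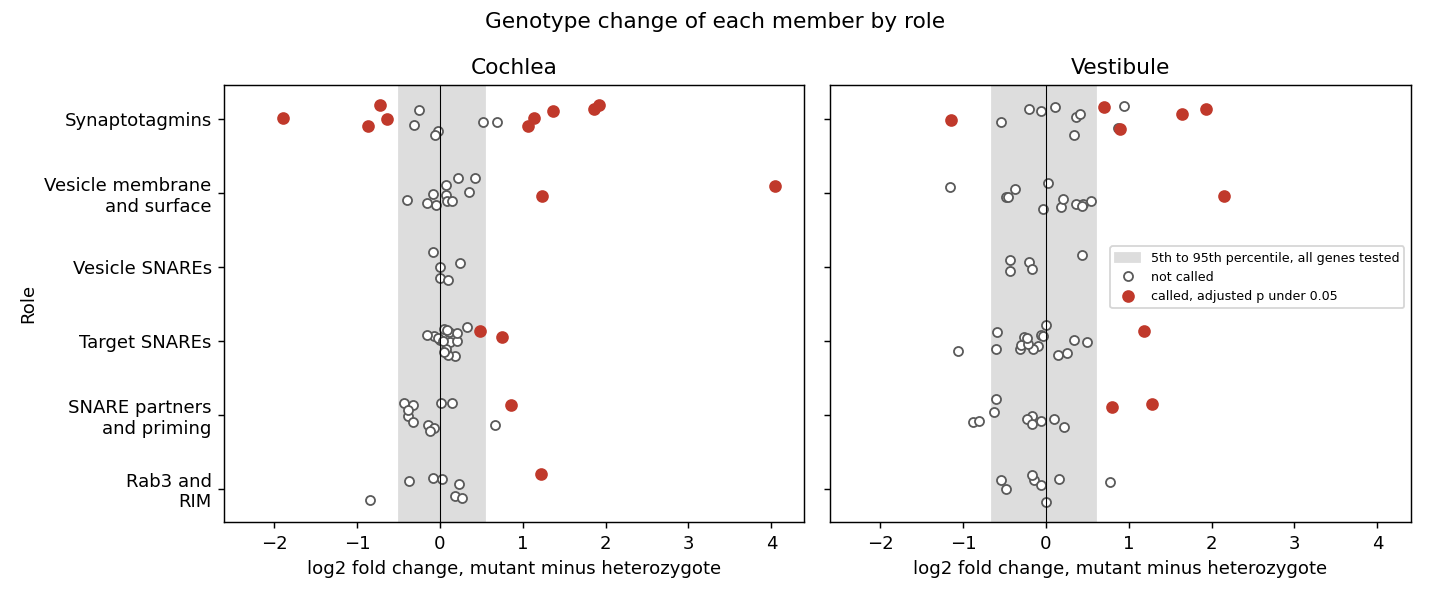
The log2 fold change of each tested vesicle and exocytosis gene (x axis, mutant minus heterozygote) by role (y axis), cochlea left and vestibule right, filled red where called. The grey band holds the 5th to 95th percentile of all genes tested, -0.49 to 0.54 for the cochlea and -0.65 to 0.61 for the vestibule, and 17 and 16 members lie outside it.

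In the mutant vestibule, 9 of 70 tested members were called, 8 higher and 1 lower (limma), which is 12.9% beside 3.5% of all genes tested (2.41% higher and 1.09% lower). Synpr, Snap25, Syt4, Syt7, Syt9, Syt11, Cplx1 and Cplx2 were higher and Syt1 was lower. The median log2 fold change of the 70 was -0.06, as it was over all genes. Mutant libraries lay wholly above heterozygous ones for 18 members and wholly below for 13 (44.3% together), beside 10.7% and 11.6% of all genes (22.3% together). With the replicate block 34 members were called, 20 higher and 14 lower, beside 23.3% of all genes (10.5% higher and 12.8% lower). Besides the members whose block value is given below, those called with the block alone included Snap47, Syt5, Syt16, Syt17, Syn3 and Vamp7, all higher, and Stx1a, Stx17, Stxbp6, Syn2, Syngr1, Sypl, Unc13d and Vamp1, all lower. Syn2 reached 1 CPM in 1 mutant library and in 3 heterozygous ones, so it met the minimum only through the heterozygotes. With edgeR on the recovered reads 8 were called, beside 3.36%, and without both replicate 1 libraries 15. Leaving out mutant replicate 2 left 3 calls, heterozygote replicate 2 left 4, and replicate 3 of either genotype 5. Over all genes, leaving out 1 vestibular library gave 226 to 522 calls, against 546 in the full fit. The count over all genes without both replicate 1 libraries is not given here. Ganglion neuron markers summed to 2233 to 2304 CPM in mutant vestibules and 1354 to 1530.2 CPM in heterozygous vestibules, with Nefl and Nefm called higher and Ntrk2 lower of 7 tested, and Thy1 at 0 to 0.739 CPM in mutants and 0.378 to 1.43 CPM in heterozygotes. Most of these sums came from Nefl and Nefm. Mast cell markers summed to 186 to 403 CPM in mutants and 1548 to 1808 CPM in heterozygotes, with 4 of 5 tested called lower, and glial markers to 240 to 268 CPM in mutants and 381 to 440 CPM in heterozygotes. Mesenchyme markers summed to 991 to 1341 CPM in mutants and 1841 to 2360 CPM in heterozygotes, and granulocyte markers to 11.6 to 12.6 CPM in mutants and 80.4 to 128 CPM in heterozygotes. Of the 8 hair cell markers Atoh1 alone was called in the vestibule. It was higher, with 77.5 to 138 CPM in mutants and 17.5 to 31.8 CPM in heterozygotes (1.99, limma, adjusted p = 0.00635). The part of these lists in the vestibular results was not tested.

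**Figure D3:**
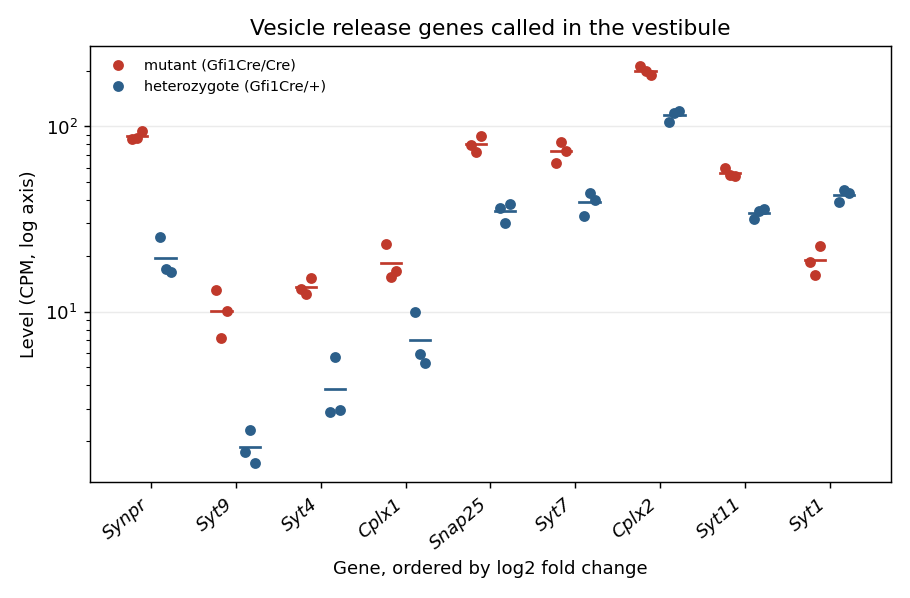
Levels in CPM (log axis) of the 9 vesicle and exocytosis genes called in the vestibule, with a point for each library, mutants left and heterozygotes right of each gene position, and a bar at the mean of 3. No mutant library overlaps a heterozygous one for any of the 9, and Syt1 is the gene with mutants below (log2 fold change -1.15).

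Synaptotagmins held 5 of the 9 vestibular calls, 4 higher and 1 lower of 14. With the block 10 of the 14 were called, 9 of them higher, among the 34 members called that way. Syt1 had 18.5, 15.8 and 22.5 CPM in mutants, against 39.1, 45.5 and 43.6 CPM in heterozygotes (log2 fold change -1.15, SE 0.17, limma, adjusted p = 0.0102). Its groups were far apart, and the call was lost on omitting heterozygote replicate 2 or mutant replicate 2 (its adjusted p reached 0.0673). Syt9, of the same sensor class, went the other way, with 13.0, 7.22 and 10.1 CPM in mutants, against 1.74, 2.31 and 1.53 CPM in heterozygotes (1.93, SE 0.26, limma, adjusted p = 0.00635). Syt4 had 13.2, 12.4 and 15.2 CPM in mutants, against 2.86, 5.66 and 2.96 CPM in heterozygotes (1.64, SE 0.26, limma, adjusted p = 0.0128). Syt11 had 59.9, 54.7 and 54.2 CPM in mutants, against 31.7, 35.1 and 35.8 CPM in heterozygotes (0.70, SE 0.13, limma, adjusted p = 0.0245). Syt4 and Syt11 were thus both higher here too, but the Syt4 call was lost without heterozygote replicate 3 and on omitting mutant replicate 2 or 3 (its adjusted p reached 0.0656). The Syt11 call was lost without heterozygote replicate 2 or 3 and without each of the 3 mutant libraries in turn (adjusted p reaching 0.109). Syt7 had 63.8, 82.6 and 73.6 CPM in mutants, against 33.0, 43.7 and 40.2 CPM in heterozygotes (0.90, SE 0.16, limma, adjusted p = 0.0207), a call lost without replicate 2 or 3 of either genotype (adjusted p reaching 0.109). Syt13, the synaptotagmin with the highest level per length in heterozygous vestibules, had 364, 263 and 248 CPM in mutants and 282, 207 and 192 CPM in heterozygotes (0.36, limma, adjusted p = 0.432, and 0.00258 with the block). Each mutant library of Syt13 was above the heterozygous library of the same number, although the groups overlapped. Syt2, which was lower in mutant cochleae, had 236, 224 and 206 CPM in mutant vestibules and 257, 255 and 254 CPM in heterozygous vestibules (-0.20, limma, adjusted p = 0.428).

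Of the vesicle membrane proteins Synpr alone was called in the vestibule, 1 of 13. It had 85.6, 86.7 and 94.2 CPM in mutants, against 25.2, 17.03 and 16.3 CPM in heterozygotes, a log2 fold change of 2.16 (SE 0.18, limma, adjusted p = 0.00081), and its mean was 4.55 times that of heterozygotes. Sv2b had 68.0, 66.9 and 60.3 CPM in mutants, against 49.95, 48.3 and 44.4 CPM in heterozygotes (0.44, limma, adjusted p = 0.115, and 0.00315 with the block). Syp had 166, 153 and 141 CPM in mutants, against 124, 111 and 104 CPM in heterozygotes (0.44, limma, adjusted p = 0.118, and 0.000966 with the block). Neither gene overlapped between the genotypes, and another gene covers 16.8% of the exon bases of Syp. Syngr2, a synaptogyrin and the member of this group with the highest level per length, had 114, 89.9 and 72.1 CPM in mutants and 112, 97.0 and 73.6 CPM in heterozygotes.

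Snap25 was the 1 target SNARE of 18 called in the vestibule, with 79.2, 73.1 and 88.5 CPM in mutants, against 36.3, 30.2 and 38.0 CPM in heterozygotes (log2 fold change 1.18, SE 0.15, limma, adjusted p = 0.00415). The mutant libraries were all well above the heterozygous ones, as in the cochlea. Stx7 lay just outside the threshold with 148, 161 and 151 CPM in mutants, against 109, 112 and 105 CPM in heterozygotes (0.49, limma, adjusted p = 0.0507, and 0.000401 with the block). Stx12 had 90.3, 103 and 92.0 CPM in mutants and 96.5, 93.4 and 94.9 CPM in heterozygotes. Stx11, a syntaxin of blood cells, had 0.580, 1.32 and 0.573 CPM in mutants, wholly below 2.72, 2.56 and 2.93 CPM in heterozygotes (-1.06, limma, adjusted p = 0.0717, and 0.00721 with the block). With 1 mutant library at 1 CPM or more, Stx11 met the minimum only through the heterozygotes, where it was higher. None of 5 vesicle SNAREs was called by limma or edgeR. An unadjusted limma p under 0.05 was reached by 2, beside 2511 of all 15595 genes, and 3 were called with the block, beside 23.3% of all genes. Vamp2 was among these 3, with 130, 137 and 110 CPM in mutants, wholly below 193, 174 and 145 CPM in heterozygotes (-0.44, limma, adjusted p = 0.189, and 0.0013 with the block).

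Both complexins of neurons were called higher in the vestibule, 2 of 12 partners and priming factors. Cplx2 had 213, 198 and 190 CPM in mutants, against 106, 118 and 121 CPM in heterozygotes (log2 fold change 0.80, SE 0.12, limma, adjusted p = 0.00876), a call lost on omitting heterozygote replicate 2 or mutant replicate 2 (its adjusted p reached 0.0529). Cplx1 had 23.3, 15.3 and 16.5 CPM in mutants, against 9.999, 5.91 and 5.31 CPM in heterozygotes (1.29, SE 0.27, limma, adjusted p = 0.0422). Its lowest mutant library was above its highest heterozygous one, and the Cplx1 call was lost without heterozygote replicate 2 or 3 and without each of the 3 mutant libraries in turn (adjusted p reaching 0.179), and edgeR gave 0.0566. Unc13b had 1516, 555 and 571 CPM in mutants and 2077, 1084 and 1139 CPM in heterozygotes, the replicate 1 libraries again being highest in both genotypes. It was not called (-0.80, limma, adjusted p = 0.397), but was with the block (6.22e-05) and without both replicate 1 libraries. None of the 8 genes of Rab3 and the RIMs was called by limma or edgeR. An unadjusted limma p under 0.05 was reached by 2, beside 2511 of all 15595 genes, and the same number was called with the block, beside 23.3%. These were Rims2, with 19.2, 22.6 and 22.7 CPM in mutants, against 12.9, 10.1 and 13.7 CPM in heterozygotes (0.77, limma, adjusted p = 0.0657, and 0.00246 with the block), and Rims3. Rims3 had 68.3, 58.2 and 60.1 CPM in mutants, wholly below 101, 75.1 and 85.4 CPM in heterozygotes (-0.47, limma, adjusted p = 0.152, and 0.0015 with the block). Rab3a, the vesicle GTPase with the highest level per length of this group, had 108, 59.9 and 64.6 CPM in mutants and 103, 77.8 and 70.4 CPM in heterozygotes.

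A set of 7 members was called in both organs, each in the same direction, beside 1.27% of all genes tested in both. Synpr, Snap25, Syt4, Syt9, Syt11 and Cplx1 were higher and Syt1 was lower. They were 46.7% of the members called in the cochlea and 77.8% of those called in the vestibule. The difference between the organs, cochlear change minus vestibular change, was called for 8 of the 69 genes tested in both (11.6%, limma interaction term), 3 positive and 5 negative, beside 3.14% of all genes (0.709% positive and 2.43% negative). With median-of-ratios rescaling or edgeR the split was 2 positive and 6 negative, and with the replicate block 16 members were called, beside 13.3% of all genes. Those gained were Syt11 (difference 1.22), Syt16 (1.45), Stxbp6 (0.89), Syt1 (0.51) and Sypl (0.51) on the positive side, and Rims2 (-0.74), Stxbp4 (-0.65) and Snap25 (-0.43) on the negative side, with limma adjusted p of 0.0055 to 0.0479 with the block. Leaving out vestibular heterozygote 2 left 4 calls, and leaving out cochlear heterozygote 1, cochlear mutant 2 or 3, vestibular mutant 2 or 3, or both cochlear replicate 3 libraries left 5. Over all genes, leaving out 1 library gave 302 to 453 calls for the difference, against 461 in the full fit. The median difference was 0.15 over the 69 and 0.11 over all genes.

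Synpr had the largest positive difference, 1.89 (SE 0.26, limma, adjusted p = 0.000824): its log2 fold change was 4.04 in the cochlea and 2.16 in the vestibule, and it was higher in all 3 mutant libraries of each organ. Rims3 differed by 1.69 (SE 0.28, limma, adjusted p = 0.00266), since its mutant libraries were all above the heterozygous ones in the cochlea and all below in the vestibule. Sv2b differed by 0.79 (SE 0.19, limma, adjusted p = 0.0303), a call lost with edgeR (0.0909), with rescaling and without 7 of the 12 libraries in turn, namely cochlear heterozygote 3, cochlear mutants 2 and 3, vestibular heterozygotes 1 and 2 and vestibular mutants 2 and 3 (adjusted p reaching 0.0899). On the negative side Syt2 differed by -1.69 (SE 0.29, limma, adjusted p = 0.00384) and Syt7 by -1.14 (SE 0.23, limma, adjusted p = 0.0101). Syt2 changed by -1.90 in the cochlea and -0.20 in the vestibule, and Syt7 had -0.25 in the cochlea and 0.90 in the vestibule. Syt13 (-1.08, SE 0.24, limma, adjusted p = 0.0233) and Syt14 (-1.21, SE 0.28, limma, adjusted p = 0.0247) were lower in mutant cochleae, while in mutant vestibules their changes were 0.36 and 0.34. Syt14 had 253, 302 and 329 CPM in mutant vestibules and 177, 244 and 284 CPM in heterozygous vestibules, with overlap between the groups, although each mutant library was above the heterozygous one of the same number (limma, adjusted p = 0.437, and 0.00664 with the block). The Syt13 difference was lost without cochlear heterozygote 1 or 2, cochlear mutant 1 or 3 or vestibular heterozygote 2 or 3 (adjusted p reaching 0.0722). The Syt14 difference was lost without cochlear heterozygote 1 or 3, cochlear mutant 2, vestibular heterozygote 2 or vestibular mutant 2 or 3 (adjusted p reaching 0.0753). Syn3 differed by -0.75 (SE 0.19, limma, adjusted p = 0.0472), with 27.1, 28.4 and 30.5 CPM in mutant vestibules and 21.2, 19.9 and 25.3 CPM in heterozygous vestibules. Without both cochlear replicate 3 libraries the adjusted p was 0.125 for Sv2b, 0.100 for Syt13, 0.0766 for Syt14 and 0.109 for Syn3. The Syn3 call was lost on leaving out any single library except vestibular heterozygote 3 (adjusted p reaching 0.139), and another gene covers 14.1% of the exon bases of Syn3.

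**Figure D4:**
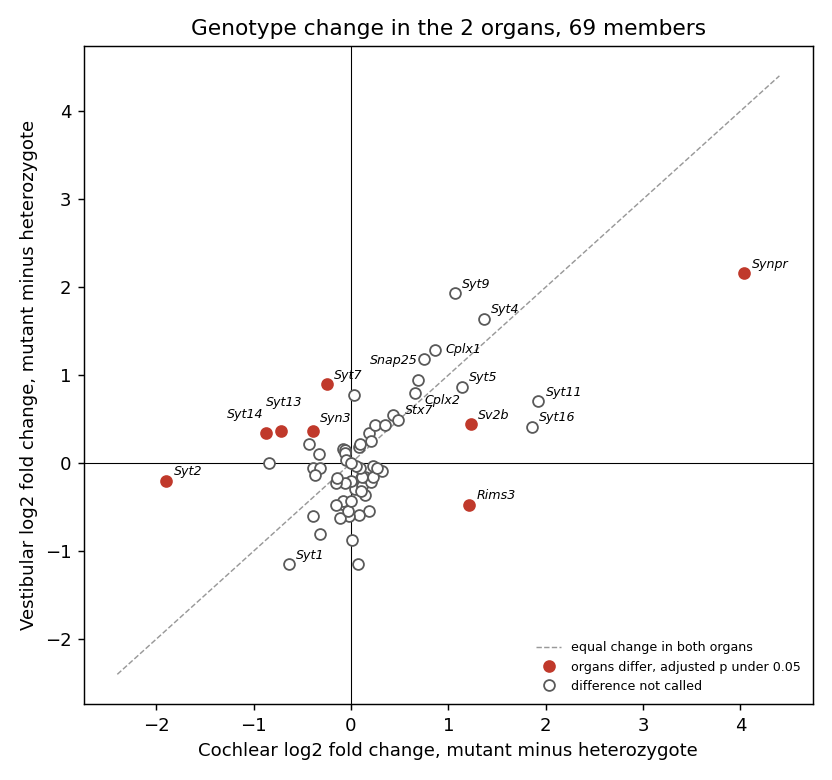
Log2 fold change (mutant minus heterozygote) of the 69 genes tested in both organs, cochlea on the x axis and vestibule on the y axis, with a dashed line of equal change. Filled red points are the 8 genes whose organs differ, and Rims3 is the one of them to the right of 0 and below 0 (1.22 in the cochlea, -0.47 in the vestibule).

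The makeup of the families is given here as each gene's share of the summed CPM per kilobase of exon of its family, with no test (mean ± SD, n = 3 libraries per group). In the cochlea, Syt14 made up 24.8% ± 6.66 of synaptotagmin transcripts in mutants and 36.6% ± 3.88 in heterozygotes, and Syt13 made up 16.4% ± 0.563 in mutants and 22.6% ± 2.49 in heterozygotes. Syt11 made up 14.6% ± 4.22 in mutants and 3.06% ± 0.791 in heterozygotes, and Syt4 made up 9.56% ± 2.14 in mutants and 2.99% ± 0.853 in heterozygotes. The family sum was 98.5, 121 and 101 CPM per kilobase in mutant cochleae and 137, 121 and 128 CPM per kilobase in heterozygous cochleae. In the vestibule Syt13 was the main member of the family in both groups, at 44.6% ± 4.98 in mutants and 42.8% ± 6.38 in heterozygotes. The vestibular family sum was 192, 165 and 160 CPM per kilobase in mutants and 149, 136 and 134 CPM per kilobase in heterozygotes, with no overlap. Syt2, which was not called, stood at 16.9% ± 0.891 in mutant and 23.9% ± 1.23 in heterozygous vestibules, and Syt1 at 1.33% ± 0.311 in mutant and 3.68% ± 0.477 in heterozygous vestibules. Synpr made up 11.9% ± 0.484 of the synaptophysin family in mutant cochleae and 0.676% ± 0.166 in heterozygous cochleae, and 8.72% ± 1.60 in mutant and 2.02% ± 0.25 in heterozygous vestibules. Snap25 made up 30.0% ± 2.06 of the SNAP-25 family in mutant cochleae and 22.3% ± 1.62 in heterozygous cochleae, and 17.7% ± 1.57 in mutant and 8.89% ± 1.23 in heterozygous vestibules. The complexins together had 53.8, 47.3 and 46.0 CPM per kilobase in mutant vestibules and 26.0, 26.6 and 27.1 in heterozygous vestibules, with no overlap.

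**Figure D5:**
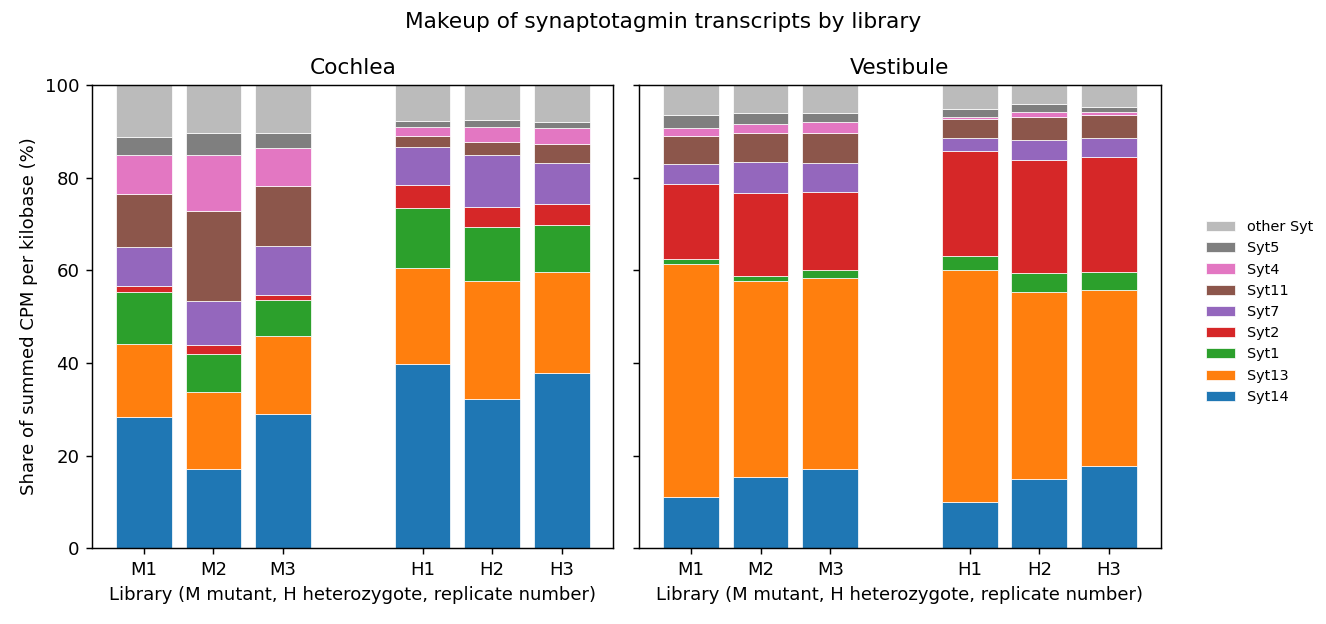
Share (%) of each synaptotagmin in the summed CPM per kilobase of the family, a stacked bar for each library, mutants (M) left of heterozygotes (H), cochlea left and vestibule right. In the cochlea Syt11 and Syt4 take a larger share in mutants (14.6% and 9.56% on average) than in heterozygotes (3.06% and 2.99%).

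Other genes of vesicle release and recycling were read from the same fits. Of 14 tested genes of the hair cell ribbon and active zone, 4 were lower in the mutant cochlea and none higher. That is 28.6% called, beside 4.41% of all genes tested (1.9% higher and 2.52% lower). Their median log2 fold change was -0.07, beside 0.05 over all genes. Slc17a8, the vesicular glutamate transporter of inner hair cells, had 37.4 ± 4.63 CPM in mutants and 75.4 ± 12.2 CPM in heterozygotes (SD, n = 3 each; -0.99, limma, adjusted p = 0.00177). Otof, which encodes otoferlin, had 341 ± 72.3 CPM in mutants and 624 ± 60.3 CPM in heterozygotes (-0.89, limma, adjusted p = 0.0035). Ctbp2, whose locus also encodes the ribbon protein RIBEYE, changed by -0.69, and Cacna1d, the calcium channel of hair cell synapses, by -0.66, a call lost on omitting mutant replicate 1 or 2 (its adjusted p reached 0.0582). With the block 7 of the 14 were called, beside 8.52% of all genes, with Erc2 and Bsn joining as higher and Rimbp2 as lower. In the vestibule 2 of 14 were higher and none lower (14.3% called), beside 3.5% of all genes tested (2.41% higher and 1.09% lower). They were Bsn, which encodes the scaffold bassoon (0.87, limma, adjusted p = 0.016), and Cacnb2, a calcium channel subunit (0.63, limma, adjusted p = 0.0496). The Bsn call was lost on omitting heterozygote replicate 2 or mutant replicate 2 or 3 (its adjusted p reached 0.0922), and the Cacnb2 call on omitting each of the 6 libraries in turn (adjusted p reaching 0.199). With the block 4 were called, beside 23.3% of all genes, with Erc2 and Pclo joining as higher.

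Among SNARE recycling and exocytosis cofactors, 2 of 21 were higher and 1 lower in the mutant cochlea (14.3% called), beside 4.41% of all genes tested. Cadps, which encodes CAPS1, a priming factor of dense core vesicles, had 120.2 ± 20.8 CPM in mutants and 38.3 ± 2.30 CPM in heterozygotes (SD, n = 3 each; 1.61, limma, adjusted p = 1.77e-05). Napb, the neuronal SNAP adaptor of the ATPase that takes SNARE complexes apart, was higher in both organs, by 0.79 in the cochlea and 0.91 in the vestibule. The vestibular Napb call was lost on omitting heterozygote replicate 2 or mutant replicate 2 or 3 (its adjusted p reached 0.0664). Rph3al, a Rab effector, was lower in the cochlea (-0.93, lost without heterozygote replicate 1, adjusted p 0.0667). In the vestibule 3 of 19 were higher and none lower (15.8% called), beside 3.5% of all genes tested. Among them Rph3a, which encodes the Rab3 effector rabphilin, had 184 ± 25.1 CPM in mutants and 78.0 ± 9.87 CPM in heterozygotes (1.23, limma, adjusted p = 0.0041). Cadps2, the relative of Cadps, changed by 0.92 in the vestibule, a call lost on omitting heterozygote replicate 3 or mutant replicate 2 or 3 (its adjusted p reached 0.0797). With the block 5 of 21 were called in the cochlea, beside 8.52% of all genes, and 5 of 19 in the vestibule, beside 23.3%, which is near that background. Those gained were cochlear Rph3a (higher) and Sytl1 (lower) and vestibular Sytl2 and Sytl3 (both lower). Cochlear Sytl1 and vestibular Sytl3 had mutant means under 1 CPM, so they met the minimum only through the heterozygotes.

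None of the 24 genes of vesicle endocytosis was called by limma or edgeR in either organ. An unadjusted limma p under 0.05 was reached by 5 in the cochlea and 2 in the vestibule. Over all genes 2185 of 17985 and 2511 of 15595 reached it. With the block 2 and 6 were called, which is near the background of 8.52% of all genes in the cochlea and 23.3% in the vestibule. Of 13 genes of dense core vesicle cargo and enzymes, 2 were higher and 1 lower in the mutant cochlea (23.1% called), beside 4.41% of all genes tested. Npy, which encodes neuropeptide Y, had 28.9 ± 11.4 CPM in mutants and 4.29 ± 0.848 CPM in heterozygotes (SD, n = 3 each; 2.44, limma, adjusted p = 7.96e-05). Pcsk1, a prohormone convertase, was lower in both organs, at 1.98 ± 1.41 CPM in mutants and 12.6 ± 1.81 CPM in heterozygotes in the cochlea, and 0.840 ± 0.339 CPM in mutants and 6.13 ± 0.396 CPM in heterozygotes in the vestibule. With a vestibular mutant mean under 1 CPM, Pcsk1 met the minimum there only through the heterozygotes. Pcsk2, the other main convertase, was higher in the cochlea (1.02), a call lost on omitting heterozygote replicate 2 or mutant replicate 2 (its adjusted p reached 0.103). In the vestibule 1 of 12 was higher and 2 lower (25% called), beside 3.5% of all genes tested. Chga, which encodes chromogranin A, had 194 ± 19.0 CPM in mutants and 92.0 ± 2.33 CPM in heterozygotes (1.07, limma, adjusted p = 0.003), and Scg2, which encodes secretogranin II, 16.0 ± 2.36 CPM in mutants and 47.2 ± 1.75 CPM in heterozygotes (-1.52, limma, adjusted p = 0.0023). With the block 8 of 13 were called in the cochlea, beside 8.52% of all genes, and 7 of 12 in the vestibule, beside 23.3%. Chgb (higher) was gained in both organs, and Bdnf was gained as lower in the cochlea and higher in the vestibule.

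The members that missed the minimum were Cplx3, Cplx4, Syngr4, Syt8 and Syt10 in both organs, Stx11 and Vamp8 in the cochlea, and Stx19 and Syt15 in the vestibule, and Vamp8 was not analysed in the vestibule. Just below it, Stx11 had 0.375, 0.645 and 0.463 CPM in mutant cochleae and 1.65, 1.86 and 0.214 CPM in heterozygous cochleae. Just inside it, Rims1 had 0.739, 0.934 and 1.88 CPM in mutant vestibules and 1.16, 2.39 and 0.851 CPM in heterozygous vestibules. Counts of members that share exon bases with another gene are uncertain, the largest share being 32.3%, for Stx18.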

How the data were processed

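RNA from HA-tagged ribosomes was sequenced from cochlear and vestibular tissue of 12 mouse samples. Each library had its own table of deposited CPM, read counts that the authors scaled to the library total. TopHat and GRCm38 come from the submitters' processing notes. The read counter, its strandedness and the annotation are not given in the sources used here. All values (100%) were whole multiples of 1 read to within 1e-06, so read counts were recovered. Within each organ, log2(CPM + 1) was fitted with limma 3.58.1 (trend, R 4.3.3) for all genes reaching 1 CPM in 3 or more of 6 libraries, a scale that understates the change of low genes. Calls needed a p under 0.05 after Benjamini-Hochberg adjustment over all genes tested. Organs were compared by an interaction term over all 12 libraries. Kit and organ cannot be told apart, and where a kit compresses fold changes the term keeps that difference.

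The alternatives tried were a pseudocount of 0.25 or 4, a filter of 5 CPM or none, median-of-ratios rescaling, a replicate block, each library left out, the sets of replicate 1 or 3 libraries left out, and edgeR 4.0.16 (quasi-likelihood, TMM) on the recovered reads, which called 813 genes in the cochlea and 524 in the vestibule. Deviations from the group means of libraries with the same number, taken from the titles, correlated at 0.226, 0.226 and 0.420 in the cochlea and 0.766, 0.508 and 0.599 in the vestibule (replicates 1, 2 and 3), so the numbers were taken to pair the samples. Across different numbers, vestibular replicates 2 and 3 also correlated (0.220 and 0.318), while replicate 1 gave -0.640 to -0.477 against them. The vestibular pattern thus partly sets replicate 1 apart from the others. The scripts were tested on simulated data. Coordinates and exon lengths came from GENCODE M21 on GRCm38, promoters from RefSeq. Members called in either organ or between organs are given in every library, as is the member with the highest heterozygous CPM per kilobase in each role, and pathway genes where called. Other uncalled members with values were picked after their values were seen. A listed ganglion neuron marker, left out of the sums, and values of a member are not reported here. Members, roles and lists were chosen with earlier results of these data known. Figures were drawn with matplotlib 3.10.9.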

Additional observations from a re-analysis of the deposited data

Results flagged for a closer look

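The change with genotype differed between the organs for 8 vesicle and exocytosis genes, by a test of the difference itself (limma interaction term, Benjamini-Hochberg adjusted p under 0.05). As cochlear minus vestibular log2 fold change, the difference was 1.89 for Synpr, 1.69 for Rims3, -1.69 for Syt2, -1.14 for Syt7, -1.08 for Syt13, -1.21 for Syt14, 0.79 for Sv2b and -0.75 for Syn3. Mutant and heterozygous libraries did not overlap in either organ for Synpr, Rims3, Sv2b, Syt2 and Syn3. Over all genes 17.5% did not overlap in the cochlea and 22.3% in the vestibule. The 8 genes were picked from these same libraries, so this separation is a description and not a further test. Within organs Syn3 was called in neither (limma, adjusted p = 0.148 and 0.308). Rims3, Sv2b and Syt2 were not called in the vestibule (limma, adjusted p = 0.152, 0.115 and 0.428). For Rims3 and Syn3 the mutant libraries lay on opposite sides of the heterozygous ones in the 2 organs. Organ and library kit cannot be told apart in this comparison.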

How the results depend on the processing

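No called result changed direction under any alternative run. For the members called in the main comparisons or highest per length in their role, 541 values over all alternatives kept their direction and their side of the threshold, 92 lost the call, 4 gained it and 20 changed sign. The sign changes were of uncalled values. Cochlear Rims2 had a log2 fold change of -0.025 with edgeR and -0.019 with rescaling, and cochlear Stx12 -0.060 with edgeR, -0.047 with rescaling and -0.032 without both replicate 3 libraries. Leaving out 1 library at a time gave, in the cochlea, -0.039 to 0.098 for Rims2, -0.060 to 0.057 for Stx12, -0.22 to 0.37 for Sypl and -0.34 to 0.052 for Vamp2. In the vestibule it gave -0.40 to 0.018 for Rab3a, -0.058 to 0.037 for Stx12 and -0.20 to 0.12 for Syngr2. The differences of Synpr, Rims3, Syt2 and Syt7 kept their calls under every alternative run. Leaving out 1 library at a time gave 10 to 13 called cochlear members, 3 to 11 vestibular ones and 4 to 8 for the difference between organs. Over all genes the same runs called 546 to 801, 226 to 522 and 302 to 453, against 794, 546 and 461 in the full fits. With the replicate block 34 members were called in the vestibule and 16 for the difference, and the block lost no call of members called without it. Without both vestibular replicate 1 libraries 15 members were called there, and without both cochlear replicate 3 libraries 5 for the difference. Counts over all genes for these runs are not given here.

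For ribbon and active zone genes, leaving out 1 library gave 3 to 5 cochlear and 0 to 2 vestibular calls. In the vestibule no filter gave 1, a pseudocount of 0.25 gave 1 and the block 4 (7 in the cochlea). For SNARE cofactors leaving out 1 library gave 2 to 4 and 1 to 3, and the block 5 in each organ. For vesicle endocytosis it gave 0 to 1 in each organ, the block 2 and 6, and the vestibule without both replicate 1 libraries 1. For dense core vesicle genes it gave 2 to 3 in the cochlea and 3 in the vestibule, the block 8 and 7, and the vestibule without both replicate 1 libraries 5. The cause of these shifts was not tested. Counts of 3 libraries a group limit precision, and cochlear libraries had fewer reads than vestibular ones.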
